A study of Mus musculus with 4 samples.

Results

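The genes described here are 9 components of Hedgehog reception and of its GLI transcription factors, namely Ptch1, Smo, Hhip, Cdon, Boc, Sufu, Gli1, Gli2 and Gli3. They were taken by name, through their Ensembl identifiers in GENCODE M21, from the 25261 genes of the deposited tables, and 9 of 9 were present. RNA sequencing was done on mouse adult neural stem cells, which divide and can form both neurons and glial cells. Cells infected with a lentivirus carrying a short hairpin RNA against mouse Ogt (shOGT, 2 libraries) were compared with cells infected with a lentivirus carrying a scramble hairpin (ctrl, 2 libraries). The strain was C57BL/6 and the age 8 weeks in both groups, so that infection, strain and age were shared. The enzyme encoded by Ogt, O-GlcNAc transferase, adds a single N-acetylglucosamine to proteins of the nucleus and cytoplasm. The labels name no separate cultures or animals behind the 2 libraries of a group, and p-values therefore measure the spread between these libraries, which may be technical.

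In the absence of ligand the receptor Ptch1 keeps the membrane protein Smo inactive, and the full-length GLI proteins are held back by Sufu or trimmed to repressors after phosphorylation by protein kinase A. When a Hedgehog ligand binds Ptch1 together with its co-receptors Cdon or Boc, Smo enters the primary cilium and GLI activators accumulate. Ptch1, Hhip and Gli1 are themselves transcribed in response to GLI, so that the receptor and the ligand-binding protein Hhip act as negative feedback. In the adult brain, Hedgehog signalling is known to maintain neural stem cells of the subventricular zone and the hippocampus.

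The deposited values are a signal per gene, scaled by 1 factor per library, and their smallest steps imply 15697508 and 17753976 reads assigned to genes in shOGT and 16909316 and 17090949 in ctrl. Ogt signal was 3379 and 3516 in shOGT libraries and 4112 and 4137 in ctrl libraries, so that its mean fell by 16.4% (log2 fold change -0.26 ± 0.04 SE, limma adjusted p = 0.00876). The 11 neural stem cell markers checked were detected, with a summed signal of 125287 and 130593 in shOGT and 134762 and 138357 in ctrl, and Fabp7 was called lower among them. Markers of other cell types were also summed, and some sums were carried by 1 or 2 genes. The 10 oligodendrocyte lineage markers summed to 60708 and 59733 in shOGT and 58457 and 59274 in ctrl, with Pdgfra and Gpr17 called lower. Olig1 (37848 and 37755 in shOGT, 36349.6 and 37152 in ctrl) and Olig2 made up most of that sum, while Mbp was at no more than 18.1 in shOGT and 32.9 in ctrl, and Mog at 0 in shOGT and under 1 in ctrl. The 7 neuronal markers summed to 17874 and 17661 in shOGT and 15765 and 16293 in ctrl. Of them 1 (Map2) was called higher and 0 lower, and single markers went both ways. Map2 alone gave 17564 and 17269 of that sum in shOGT and 15469 and 15954 in ctrl, while Rbfox3 was at no more than 33.0 in shOGT and 24.9 in ctrl, and Neurod1 at no more than 3.19 in shOGT and 4.99 in ctrl. The 6 astrocyte markers summed to 20658 and 22515 in shOGT and 22238 and 21856 in ctrl. Here 1 (Aldh1l1) was called lower and 0 higher, and single markers again went both ways. The 3 ependymal markers measured summed to 792 and 750.4 in shOGT and 631 and 679 in ctrl, and limma called 0 of them, with 1 (Foxj1) at an unadjusted p under 0.05. Microglial (5 measured), endothelial (3) and mural or fibroblast (5) markers summed to at most 12.3, 35.1 and 75.5 in shOGT and 11.0, 23.8 and 110.1 in ctrl. The part of these cell types in the values below was not tested.

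Within the Hedgehog genes, the receptor Ptch1 rose and the signal transducer Smo fell in shOGT, while the remaining 7 did not pass the test. The test was limma on log2(signal + 1), with Benjamini-Hochberg adjustment over the 21829 genes with a signal of at least 1 in at least 2 libraries, and a gene is called at an adjusted p under 0.05. The 9 members passed this filter. Of them 2 (22.2%) were called, against 4.86% of all tested genes (1060, of which 427 were higher and 633 lower). By direction, 1 of 9 was called higher and 1 lower, against 1.96% and 2.9% of all tested genes. The members were chosen with earlier results of these data known, so their share called is not independent evidence. The share over all genes also depends on the filter. With a minimum signal of 10, limma called 1955 of 15475 genes, a larger share than 4.86%, and again 2 members. Gli1 fell below this minimum and was not tested there. The members' median log2 fold change was 0.14, beside 0.001 for all tested genes. In bulk RNA, fewer cells that express a gene and less RNA per cell cannot be told apart.

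**Figure D1:**
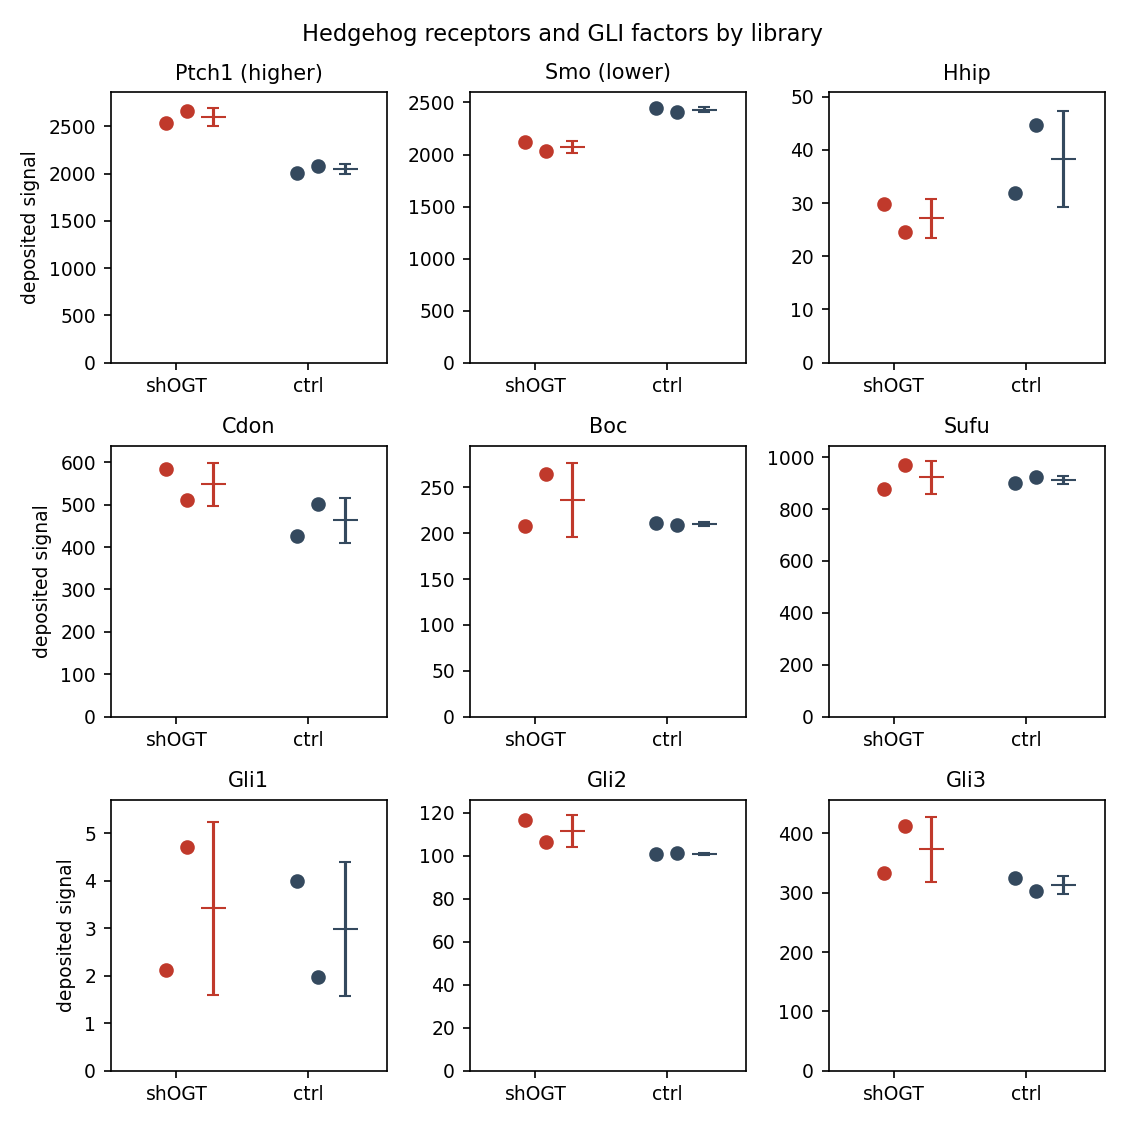
Deposited signal (vertical axis, from 0) of each of the 9 genes in the 2 shOGT and the 2 ctrl libraries. Dots are libraries and the bar beside them is the mean ± SD (n = 2). Ptch1 lies at 2531 and 2664 in shOGT, above both ctrl libraries, Smo lies at 2117 and 2031 in shOGT, below both ctrl libraries, and Gli1 lies under 5 in all 4 libraries.

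Ptch1 (ENSMUSG00000021466, minus strand of chromosome 13, 63508328 to 63573598 on GRCm38) encodes the twelve-pass receptor that binds Hedgehog ligands and restrains Smo. Its signal was 2531 and 2664 in the shOGT libraries, against 2008 and 2083 in the ctrl libraries. Both shOGT values lay above both ctrl values. The mean was 2598 ± 93.7 in shOGT and 2045 ± 53.5 in ctrl (SD, n = 2 each), 27.0% higher. The log2 fold change was 0.34 ± 0.05 (SE), with a 95% interval of 0.24 to 0.45 and a limma adjusted p of 0.00499. The mean signal of Ptch1, not divided by gene length, was at or above that of 92.6% of tested genes.

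Smo (ENSMUSG00000001761, plus strand of chromosome 6, 29735503 to 29761365 on GRCm38) encodes the seven-pass membrane protein that passes the signal on once Ptch1 releases it. Its signal was 2117 and 2031 in the shOGT libraries, against 2447 and 2411 in the ctrl libraries. Both shOGT values lay below both ctrl values, with a gap between the groups wider than the distance between the libraries of either group. The mean was 2074 ± 60.4 in shOGT and 2429 ± 25.3 in ctrl (SD, n = 2 each) and thus fell by 14.6%. The log2 fold change was -0.23 ± 0.05 (SE), with a 95% interval of -0.33 to -0.13 and a limma adjusted p of 0.0227. The 3′ untranslated region of Smo, 1080 bases long, holds from base 313 one of the hexamers described with the pathway genes, and is shown around it for comparison with those genes (chr6:29760586-29760615, plus strand, GRCm38, 5′ to 3′, hexamer in capitals).
Smo: acagggatgatgGTACCCagagtgggctgt

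The opposite differences of receptor and transducer changed which of the pair had the larger signal. The ratio of Ptch1 to Smo signal was 1.20 and 1.31 in shOGT and 0.820 and 0.864 in ctrl. Each group's 2 ratios thus lay on their own side of 1. This ratio compares signals that are not divided by length, so it describes the change between groups and not the relative number of transcripts.

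Both calls rested on the test's settings. The filter, the variance trend and the block do not enter a gene's log2 fold change here, so it was the same under those settings by construction. Since the groups did not overlap for either gene, leaving out a library could not reverse the direction. Only the size could vary, with the pseudocount, the scaling and the libraries used. Over all settings tried, the log2 fold change stayed between 0.31 and 0.38 for Ptch1 and between -0.26 and -0.20 for Smo. Without shOGT 1 the limma adjusted p was 0.285 for both genes, and without shOGT 2 it was 0.288 for Ptch1 and 0.289 for Smo. With the 21829 genes of the filter over 4 libraries kept, in place of a filter reapplied to the 3 left, leaving out either ctrl library also ended both calls. The fits without an shOGT library called 0 of all tested genes, as did fits with quantile normalization, without a filter and without the variance trend, although 2763 to 4302 genes had an unadjusted p under 0.05 in these 5 fits. Of all calls 40.3% were higher ones, and 50.3% once libraries were rescaled to equal totals.

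**Figure D2:**
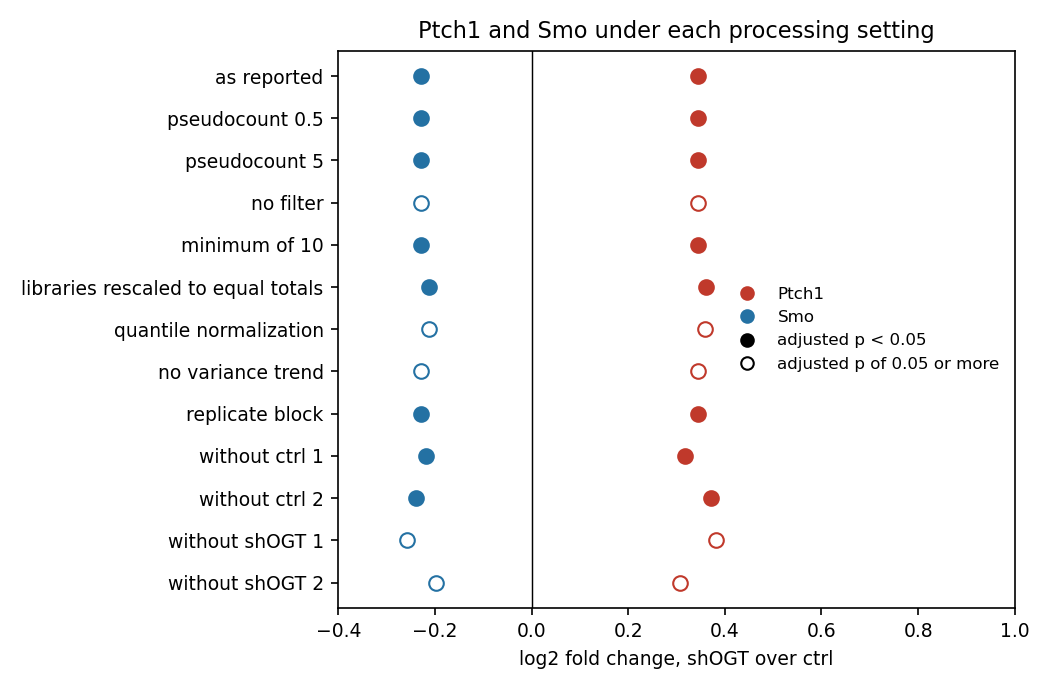
Log2 fold change of Ptch1 and Smo (horizontal axis, shOGT over ctrl) under each processing setting (vertical axis). Filled points have a limma adjusted p under 0.05 and open points do not. Ptch1 stays between 0.31 and 0.38 and Smo between -0.26 and -0.20, and both lose the call under 5 of the settings drawn.

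Among the further membrane and extracellular proteins, none passed the test. Cdon (chromosome 9, 35421128 to 35507652), an immunoglobulin-domain co-receptor that helps Ptch1 to bind ligand, had a signal of 584 and 512 in shOGT, against 426 and 501 in ctrl. Both shOGT values were above both ctrl values, but shOGT 2 and ctrl 2 differed by less than the libraries of either group. Its log2 fold change was 0.24 ± 0.10 (SE), with a 95% interval of 0.02 to 0.46 and a limma adjusted p of 0.212. Without ctrl 2 it was 0.36 (limma adjusted p = 0.0249, or 0.379 with the 21829 genes kept), and without ctrl 1 it was 0.13 (limma adjusted p = 0.633).

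Boc (chromosome 16, 44485049 to 44558897), the second co-receptor of this family, had a signal of 207 and 265 in shOGT, against 211 and 208 in ctrl. The groups overlapped, since shOGT 1 lay below both ctrl libraries and shOGT 2 above them. The log2 fold change was 0.16 with a 95% interval of -0.13 to 0.45 (limma adjusted p = 0.559), and -0.02 without shOGT 2. Hhip (chromosome 8, 79965851 to 80058006), a membrane-anchored decoy that binds Hedgehog ligands and is itself a target of GLI, was low, at 29.8 and 24.5 in shOGT, against 31.9 and 44.6 in ctrl. Both shOGT values were below both ctrl values, but the 95% interval of its log2 fold change ran from -1.11 to 0.18 around -0.47 (limma adjusted p = 0.422). Without ctrl 2 the log2 fold change was -0.23. A misc_RNA gene, Gm27820, overlaps 1.93% of Hhip exon bases, on the other strand.

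Of the intracellular members, Sufu (chromosome 19, 46396896 to 46488804), which binds GLI proteins and holds them out of the nucleus, had a signal of 878 and 968 in shOGT, against 901 and 923 in ctrl. Both ctrl values lay between the shOGT values. Its log2 fold change of 0.02 had a 95% interval of -0.13 to 0.16 (limma adjusted p = 0.923), the narrowest interval among the members not called.

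Gli3 (chromosome 13, 15463235 to 15730026), which works mainly as the trimmed repressor, had a signal of 334 and 412 in shOGT, against 324 and 303 in ctrl. Both shOGT values were higher, shOGT 1 by less than the distance between the ctrl libraries. The log2 fold change was 0.24 with a 95% interval of -0.004 to 0.49 (limma adjusted p = 0.266), and 0.09 without shOGT 2. Gli2 (chromosome 1, 118834132 to 119053619), the main activator of the family, had a signal of 117 and 107 in shOGT, against 101 and 101 in ctrl. The shOGT values were above the ctrl values, with a log2 fold change of 0.14 and a 95% interval of -0.19 to 0.47 (limma adjusted p = 0.649).

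Gli1 (chromosome 10, 127329882 to 127341974), the activator whose own transcription depends on GLI and which serves as the usual readout of active Hedgehog signalling, was close to undetected. Its signal was 2.13 and 4.71 in shOGT, against 3.99 and 1.98 in ctrl, the equivalent of 2 and 5 reads in shOGT and 4 and 2 in ctrl. A difference could not be detected at this depth, as the 95% interval of its log2 fold change reached from -1.29 to 1.55 (limma adjusted p = 0.942). Exons of Arhgap9 and Gm47200 on the other strand cover 1.24% and 5.31% of Gli1 exon bases, and counting by strand is not stated.

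Counting pairs of groups without a test, 6 of the 9 members had shOGT and ctrl values that did not overlap. Ptch1, Cdon, Gli2 and Gli3 were higher in shOGT and Smo and Hhip lower. The same held for 49.3% of all tested genes, 25.0% higher and 24.3% lower. At an unadjusted p under 0.05 stood 3 of the 9, namely Ptch1, Smo and Cdon, against 19.3% of all tested genes (4214).

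**Figure D3:**
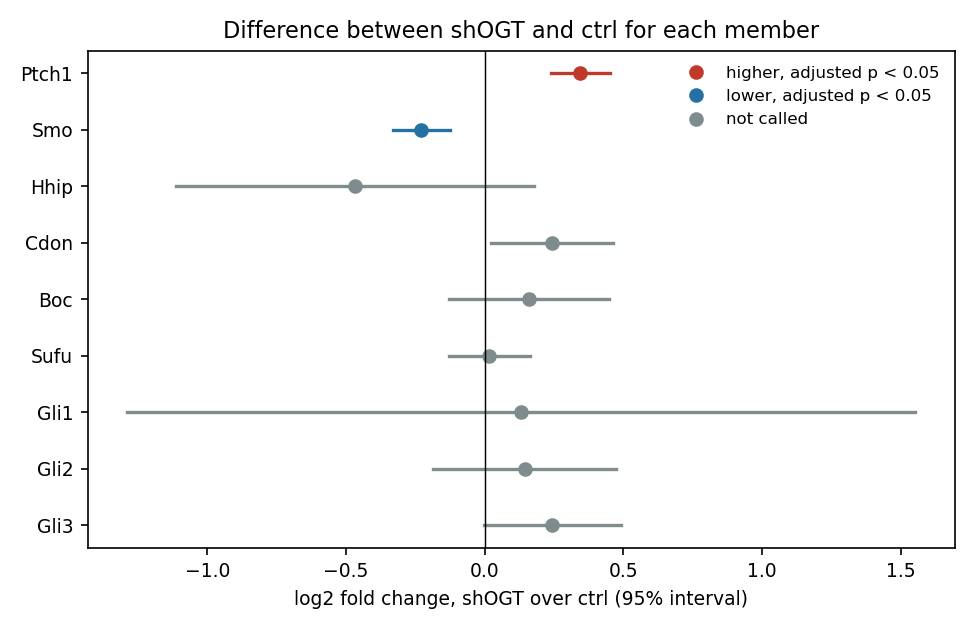
Log2 fold change of each member (horizontal axis, shOGT over ctrl, on the log2(signal + 1) scale) with its 95% interval from limma. Red marks a gene called higher, blue a gene called lower and grey a gene not called. The intervals of Ptch1 (0.24 to 0.45) and Smo (-0.33 to -0.13) lie away from 0, and that of Gli1 (-1.29 to 1.55) is the widest.

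Levels were compared between the genes as signal per kilobase of merged exons, the union of all annotated exons of a gene. Smo was the most abundant of the 9, at 369 ± 10.7 in shOGT and 432 ± 4.51 in ctrl (signal per kilobase, SD, n = 2 each). Ptch1 followed at 183 ± 6.60 in shOGT and 144 ± 3.77 in ctrl, and Sufu at 120.0 ± 8.27 in shOGT and 119 ± 2.02 in ctrl. So in both groups a kilobase of Smo carried more signal than a kilobase of Ptch1, although the total signal of Ptch1 exceeded that of Smo in shOGT.

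The co-receptors stood in the middle of the order, Cdon at 71.0 ± 6.58 per kilobase in shOGT and 60.1 ± 6.88 in ctrl and Boc at 53.0 ± 9.15 in shOGT and 47.2 ± 0.494 in ctrl. The GLI factors came below them. Gli3 stood at 38.9 ± 5.76 per kilobase in shOGT and 32.7 ± 1.59 in ctrl, and Gli2 at 16.3 ± 1.07 in shOGT and 14.7 ± 0.0470 in ctrl. Hhip (2.99 ± 0.410 in shOGT, 4.22 ± 0.991 in ctrl) and Gli1 (0.685 ± 0.366 in shOGT, 0.598 ± 0.284 in ctrl) closed the order.

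The order was the same in both groups, and no 2 neighbours had ranges that overlapped within a group. It depended on the length used at one place. Per kilobase of the longest transcript, Ptch1 was at 250.2 and Sufu at 204 in shOGT, whereas in ctrl Ptch1 was at 197 and Sufu at 202. At this length their ctrl ranges overlapped (Ptch1 193.3 to 200.6, Sufu 199.1 to 204.0), so their order in ctrl was not resolved.

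**Figure D4:**
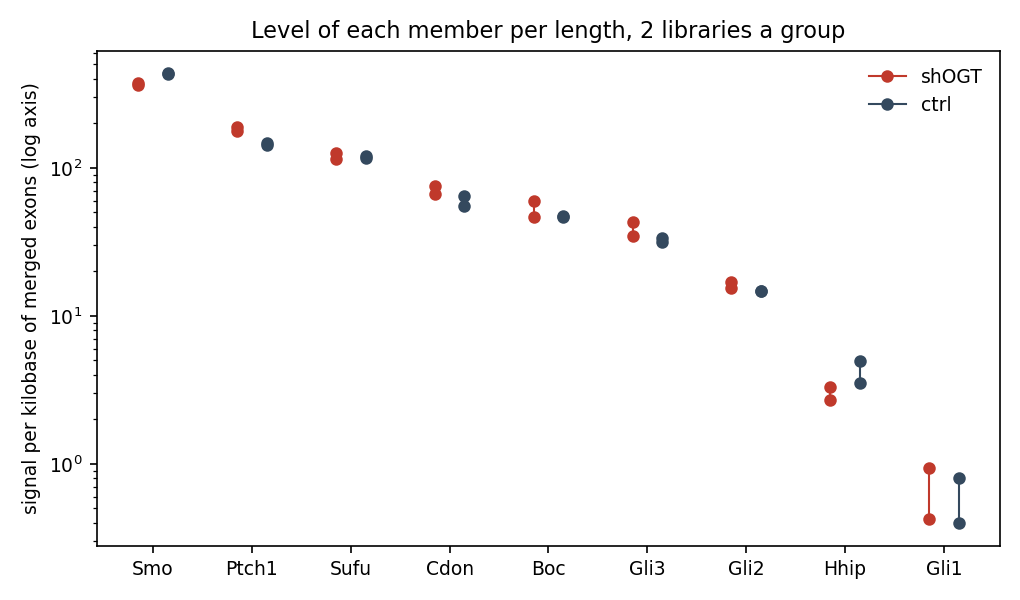
Signal per kilobase of merged exons (vertical log axis) of the 9 genes, ordered by their ctrl mean, in the 2 shOGT and the 2 ctrl libraries. Points are libraries and the line joins the 2 of a group. Smo is highest, at 369 in shOGT and 432 in ctrl, and Gli1 lowest, at 0.685 in shOGT and 0.598 in ctrl.

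The remaining pathway was described with 4 further lists. Of 19 genes of ligands, ligand release and reception, 1 was higher and 2 lower (15.8% called, median log2 fold change 0.03). Of all tested genes, 4.86% were called, 1.96% higher and 2.9% lower, and these lists too were chosen with earlier results known. Disp2, a homologue of the transporter that releases lipid-anchored Hedgehog, rose to 778 and 937 in shOGT, against 607 and 610.1 in ctrl (log2 fold change 0.49 ± 0.09 SE, limma adjusted p = 0.0146). The glypicans Gpc1 and Gpc6 are heparan sulphate proteoglycans of the cell surface, of the family that modulates ligand reception. Gpc1 fell to 1648 and 1576 in shOGT, against 2099 and 2263 in ctrl (log2 fold change -0.44 ± 0.05 SE, limma adjusted p = 0.00326). Exons of Ankmy1, on the other strand, overlap 18.9% of its exon bases. Gpc6 fell to 416 and 432 in shOGT, against 506 and 581 in ctrl (log2 fold change -0.36, limma adjusted p = 0.0480). The call of Gpc6 was lost with a pseudocount of 0.5 (limma adjusted p = 0.0579), and without ctrl 2 its log2 fold change was -0.25. Without a filter, with quantile normalization or without the variance trend, limma called 0 of all tested genes. Every call in these lists was thus lost under those settings. Other settings added calls among genes given below as not called. With a minimum signal of 10, Scube2 (limma adjusted p = 0.0393) and Gpr161 (limma adjusted p = 0.0345) passed. With replicate number as a block, Scube2 (limma adjusted p = 0.0263), Gpr161 (limma adjusted p = 0.0237) and Tulp3 (limma adjusted p = 0.0436) passed. Foxm1 and Cdk6 also passed in some setting.

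The ligands themselves were scarce. The ligand genes, and Gas1 below, are named for their role with their values known. Shh had a signal of 15.9 and 23.6 in shOGT, against 8.98 and 17.9 in ctrl, with overlapping groups (log2 fold change 0.57, limma adjusted p = 0.52). Dhh stood at 55.3 and 59.4 in shOGT, against 60.8 and 51.6 in ctrl, and Ihh at no more than 3.77 in shOGT and 1.98 in ctrl. Exons on the other strand overlap 15.7% (9530036O11Rik) and 12.7% (Gm26894) of Shh exon bases, and Gm49442 overlaps 25.2% of those of Dhh. On the same strand as Dhh, exons of the protein-coding gene Rhebl1 overlap 12.4% of its exon bases. Scube2, a secreted factor that helps ligand release, had 3.19 and 3.77 in shOGT, against 14.96 and 12.9 in ctrl (log2 fold change -1.74 ± 0.46 SE, limma adjusted p = 0.0679). Gas1, the third co-receptor, was abundant at 1882 and 1610.1 in shOGT, against 1705 and 1731 in ctrl (log2 fold change 0.02, 95% interval -0.14 to 0.17). Of its exon bases 19.9% overlap the lincRNA gene Gm48488.

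Of 25 ciliary regulators of Smo and GLI, 0 were higher and 1 lower (median 0.04). The share called was 4.0%, near the 4.86% of all tested genes. Arl13b, a small GTPase of the ciliary membrane, fell to 418 and 409 in shOGT, against 536 and 546 in ctrl (log2 fold change -0.39 ± 0.07 SE, limma adjusted p = 0.0174). Gpr161 and Tulp3 were not called. Gpr161, a ciliary receptor that raises cyclic AMP and restrains the pathway, had 419 and 424 in shOGT, against 499 and 518 in ctrl (limma adjusted p = 0.0695). Tulp3, which brings Gpr161 into the cilium, had a log2 fold change of 0.16 (limma adjusted p = 0.146).

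Of 36 protein kinase A subunits, other kinases, ubiquitin factors and cofactors that act on GLI proteins, 0 were higher and 3 lower (median 0.01). This was 8.33% called, against 4.86% of all tested genes. The 3 lower genes encode regulatory subunits of protein kinase A, the kinase that primes GLI proteins for trimming. These subunits keep the kinase inactive until cyclic AMP binds. Prkar2a fell to 1834 and 1936 in shOGT, against 2573 and 2714 in ctrl (log2 fold change -0.49 ± 0.05 SE, limma adjusted p = 0.00155). Prkar2b fell to 646 and 645 in shOGT, against 809.8 and 805 in ctrl (-0.32 ± 0.06, limma adjusted p = 0.018). Prkar1a fell to 7643 and 7889 in shOGT, against 8843 and 8824 in ctrl (-0.19 ± 0.03, limma adjusted p = 0.0172). The fourth regulatory subunit, Prkar1b, had a log2 fold change of 0.34 (limma adjusted p = 0.355), and the catalytic subunit Prkaca, at 3593 and 3682 in shOGT against 3954 and 3914 in ctrl, one of -0.11 (limma adjusted p = 0.144).

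Of 23 tested genes known to follow GLI activity in one tissue or another, 0 were called by limma, and 6 had an unadjusted p under 0.05 (median -0.02), a share near the 19.3% of all tested genes. This list leaves out Ptch1, Gli1 and Hhip, which also follow GLI and are counted with the members. Of these, Ptch1 was called higher. The 4 with the smallest p were Foxm1, Cdk6, Bmi1 and Mycn. Foxm1, a transcription factor of mitotic genes, had a signal of 1982 and 1840.1 in shOGT, against 2209 and 2161 in ctrl (limma adjusted p = 0.0631). Cdk6, a G1 kinase, had 112 and 81.1 in shOGT, against 56.8 and 64.5 in ctrl (limma adjusted p = 0.116). Bmi1, a Polycomb protein of stem cell renewal, had a log2 fold change of -0.15 (limma adjusted p = 0.132). Mycn, a growth-promoting transcription factor, had 12.8 and 16.97 in shOGT, against 28.9 and 30.8 in ctrl (limma adjusted p = 0.134).

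**Figure D5:**
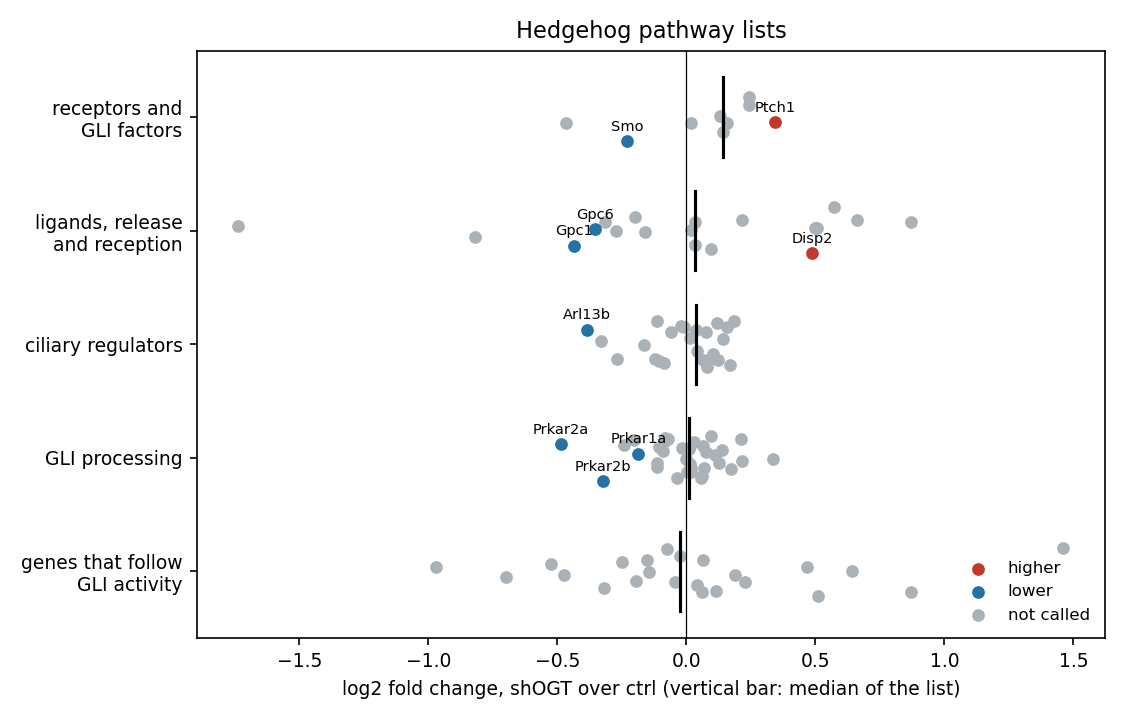
Log2 fold change (horizontal axis, shOGT over ctrl) of each tested gene in the 5 Hedgehog pathway lists (vertical axis). Points are genes, spread vertically for legibility, red if called higher, blue if called lower and grey if not called, and the black bar is the median of the list. The medians run from -0.02 to 0.14, and the calls are Ptch1 and Disp2 on the higher side and 7 genes on the lower side.

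The 3′ ends of the transcripts were searched for a pair of short sequences. In 3′ untranslated regions, the hexamers GCTATC and GTACCC (searched on the transcript strand, in the longest such region among a gene's protein-coding GENCODE transcripts) occurred, one or the other, in 54.9% of the lower genes, 29.6% of the higher genes and 29.2% of the 15118 tested genes with such a region. These hexamers had been chosen earlier from the lower genes of these same libraries, so that neither this share among the lower genes nor the count among the lower pathway genes below is independent evidence. The hairpin's own sequence is not given in the sources used here. Of the members, Smo (GTACCC), Sufu and Hhip (GCTATC, in 2860 and 6480 bases) held 1 each, and Ptch1 held 0 in 3205 bases. Of the 7 lower genes of the 5 lists 6 held at least 1, all except Prkar2b, and of the 2 higher genes, Ptch1 and Disp2, 0 did. Tulp3, Foxm1 and Cdk6, which were not called, also held them. Ogt, outside these lists and called lower, held 0 in 2021 bases. The regions searched differed in length, with a median of 1566 bases in the lower genes, 1731 in the higher genes and 1148.5 in all tested genes. The part of these hexamers in the falls was not tested, and a match is a description of letters and not a site of action.

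The first match in each of the 5 genes besides Smo is shown with its surroundings, 30 bases 5′ to 3′ on the transcript strand, with the hexamer in capitals (GENCODE M21, GRCm38). They lie at chr1:92860551-92860580 (plus, Gpc1), chr14:117975272-117975301 (plus, Gpc6), chr16:62794934-62794963 (minus, Arl13b), chr9:108747774-108747803 (plus, Prkar2a) and chr11:109669116-109669145 (plus, Prkar1a).
Gpc1: ggtgccccagagGTACCCaagagagcagtg
Gpc6: ctctttccgtcaGCTATCtgtggggacctc
Arl13b: gatttgagagtgGTACCCaaggagagaatt
Prkar2a: cataaacaaattGCTATCcttttctaagga
Prkar1a: actttgtggttgGCTATCtttttttatatt
Smo, Gpc1 and Arl13b hold GTACCC, and Gpc6, Prkar2a, Prkar1a and, at a second place, Arl13b hold GCTATC.

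Promoters of the members were searched for the consensus that GLI proteins bind, GACCACCCA, on both strands. RefSeq windows on GRCm38.p6, from 250 bases before to 50 after a start, were held for 7 members, all except Gli1 and Boc. The windows of Ptch1, Cdon and Gli3 lie at starts inside the gene as GENCODE M21 bounds it, not at its outermost start. The exact motif was in 0 of the 7 windows and in 0.253% of all 32851 windows. With up to 1 mismatch it was again in 0 of 7, and in 6.74% of all windows. The closest matches had 2 mismatches in Smo, Gli2 and Hhip and 3 in Ptch1, Gli3, Sufu and Cdon, whereas 58.3% of all windows hold a match with up to 2. These windows are short, and nothing on GLI binding elsewhere follows.

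The genes with a pattern over the 4 libraries most like that of Ptch1 were Srxn1, Slc16a9 and Peg3, among 12199 genes with a mean signal of at least 50. Their root mean square difference from Ptch1, after centring log2(signal + 1) over the libraries, was 0.00707, 0.00821 and 0.00875. Srxn1, which encodes sulfiredoxin, an enzyme that repairs oxidised peroxiredoxins, had 822 and 875 in shOGT, against 658 and 684 in ctrl. Peg3, an imprinted zinc-finger gene, had 7061 and 7399.9 in shOGT, against 5524 and 5729.6 in ctrl, and Slc16a9, of the monocarboxylate transporter family, 158 and 167 in shOGT, against 127 and 132 in ctrl. With 4 libraries such likeness is a description only.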

How the data were processed

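RNA sequencing of 4 libraries of adult neural stem cells was used, grouped by their titles. The authors deposited 1 signal value per gene and library. Per the submitters' processing notes the genome build was mm10; the sources used here do not give the aligner, counting tool, strand setting or normalization. Within 0.01 of a step, 100% of the deposited signal values were whole multiples of 1 step per library, the form of read counts divided by a library factor; models of read counts were not used. Of the 25261 identifiers, 25250 matched GENCODE M21. The fit used limma 3.58.1 in R 4.3.3 with a trended variance, on log2(signal + 1), for genes with at least 1 in at least 2 libraries, shOGT over ctrl, a scale that understates the change of low genes. A chi-square over genes with at least 20 implied reads was 3.33 per gene between the shOGT libraries and 2.02 between the ctrl libraries, above the value for sampling noise alone, so each counted as 1 sample. Intervals cover the fit's error at 95% confidence. With 2 libraries a group, exact permutation has no p under 0.05, and limma's p is given instead. The fit was run on simulated reads with the same dispersion in all genes and libraries. The chi-square above differed between the groups, so that run does not test the calls made here. Named were the 9 members, Ogt, and of each other list the called genes and up to 4 with the smallest p; others are marked where named, and a few genes under this rule or among the markers are not reported here. Members and lists were chosen with earlier results of these data known. Lists were described by counts and medians, with no set test. Alternatives changed the pseudocount (0.5, 5), the filter (none, at least 10), the scaling, the variance trend, the block and the libraries used.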

Additional observations from a re-analysis of the deposited data

How the results depend on the processing

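Of all tested genes 1060 were called, and 0 without a filter, with quantile normalization or without the variance trend; a filter at 10 gave 1955. Hedgehog members called numbered 2, and 0 without a filter, with quantile normalization or without the variance trend. Leaving out 1 library gave 0 to 1220 genes and 0 to 3 members, with 0 of both without either shOGT library. An alternative chosen after seeing the data kept the 21829 genes of the filter over 4 libraries when 1 library was left out, in place of a filter reapplied to the 3 left; it gave 0 genes and 0 members without any one of the 4 libraries, with 2484 to 3389 genes at an unadjusted p under 0.05. The cause was not tested. Leaving out 1 library, under either filter, gave log2 fold changes of -0.017 to 0.33 for Boc, -0.054 to 0.087 for Sufu and -0.30 to 0.57 for Gli1, each lowest without shOGT 2. Sufu was at -0.00073 without ctrl 1 and Gli1 at -0.24 without ctrl 2. The direction of these 3 genes thus depended on 1 library.

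Library numbers showed no sign of pairing (correlation of same-numbered deviations 0.02 over 12200 genes). With 2 libraries a group this cannot show that the samples were unpaired, and the labels name no pairing. With the replicate block 2302 genes and 3 members were called, the third being Cdon (limma adjusted p = 0.0406). The planned tests on whole reads (2 tools) were not run. Depth limits Gli1 and Hhip most. The pseudocounts and equal totals left the calls of Ptch1 and Smo in place, while Gpc6 lost its call at a pseudocount of 0.5 (limma adjusted p = 0.0579).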
